A study of Mus musculus with 8 samples.

Results

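The genes described here are 32 mouse genes of hypoxia signalling and glycolysis, chosen by symbol from the gene names of the array. The rule uses no measured value, although the list was drawn up with earlier results of these data known. They stand among 23050 genes tested in all, and all 32 passed the filter on dim probes. The members are the alpha subunits of the hypoxia-inducible factor (HIF) Hif1a and Epas1, the oxygen sensors Egln1 and Egln3, the transporters Slc2a1 and Slc16a3, 15 enzymes of the glycolytic path from hexokinase to lactate dehydrogenase, 3 regulators of that path, and 8 further hypoxia targets.

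RNA was measured in 3T3-L1 adipocytes, fat cells obtained in culture by differentiating an immortal mouse preadipocyte line. The 4 groups of 2 arrays each were all made from this one line and differed by what was added for 72 h: physiological saline, or the asbestos fibres chrysotile (a serpentine mineral), crocidolite or amosite (both amphiboles), with each fibre at 10 mg/cm2 as the labels write it, a unit that is in doubt and rests on the labels alone. Each of the 8 samples was read on a 1-colour Agilent mouse array. Whether the 2 replicates of a group were separate cultures is not stated in the labels, and the p-values reflect the variation between the arrays at hand, part or all of which may be technical.

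HIF is a transcription factor whose alpha subunits are made continuously and destroyed when oxygen is present, because prolyl hydroxylases mark them for degradation. When oxygen, iron or other cofactors of these enzymes are short, the alpha subunit pairs with its partner Arnt and binds short DNA letters in the promoters of its targets. Those targets raise glucose uptake, glycolysis, lactate export and acid handling. The activity of HIF is set largely at the protein level, which RNA arrays do not measure. In fat, local hypoxia and HIF activity are known from expanding tissue, and glycolysis also supplies the glycerol backbone of stored triglyceride.

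Most of these genes stood higher with chrysotile and with crocidolite than with saline, by small amounts, and stood close to saline with amosite. The median log2 difference of the 32 members was 0.22 for chrysotile against saline, 0.24 for crocidolite and 0.02 for amosite, while the median over all genes tested was -0.01, -0.02 and -0.02. Of the 32 members, 28 lay above 0 with chrysotile against 48.8% of all genes, 29 with crocidolite against 46.3%, and 21 with amosite against 44.7%. No member passed limma's test at a Benjamini-Hochberg adjusted p of 0.05 in any of these comparisons, and 0% of the 23050 genes did. The smallest adjusted p among the members was 0.889 with chrysotile, 0.493 with crocidolite and 1.00 with amosite. In the fit that also holds the replicate number as a block these values were 0.44, 0.284 and 1.00. The 3 comparisons share the saline arrays, so their values are given side by side and are not independent of each other.

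The letters that HIF binds are known as the hypoxia response element, with the core ACGTG or GCGTG. The 250 bases upstream of the start were read from RefSeq (GRCm38.p6) for the 30 of 32 members with an entry, and both strands were searched for these cores. On the printed strand a core then reads ACGTG, or CACGT where it lies on the other strand. The second form likewise reads GCGTG, and where it lies on the other strand it reads CACGC. The palindrome CACGTG holds the core on both strands and was counted as 2 overlapping matches. At least 1 core was found for 27 of 30 members (90%), and in 35 of their 43 promoter entries (81.4%), against 12679 of 32851 promoters of all genes (38.6%). With 2 or more cores the shares were 48.8% and 16.7%. Promoters of the members were also richer in GC, with a median of 62.8% against 52.4%, and held a median of 14 CpG against 6, and the part of this in the count of cores was not tested. The members were chosen as genes of hypoxia signalling and glycolysis, known HIF targets among them, so a higher share could be foreseen from the choice. Some entries of the same gene overlap and share cores, as in Eno1, so the entries are not independent counts. A match describes the letters only and does not show that HIF binds there.

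Promoters are printed for Adm, Pfkp, Hif1a and Eno1, which had the smallest unadjusted p-values among members whose promoter holds a core, so that the letters can be set beside the values that follow. Capitals mark the cores. Each runs 5′ to 3′ on the strand of its gene and ends at the base before the start. The Adm promoter is chr7:110627407-110627656 on the plus strand, that of Pfkp is chr13:6648772-6649021 on the minus strand, that of Hif1a is chr12:73907617-73907866 on the plus strand, and the Eno1 entry shown, 1 of 3 for that gene, is chr4:150236947-150237196 on the plus strand.
Adm: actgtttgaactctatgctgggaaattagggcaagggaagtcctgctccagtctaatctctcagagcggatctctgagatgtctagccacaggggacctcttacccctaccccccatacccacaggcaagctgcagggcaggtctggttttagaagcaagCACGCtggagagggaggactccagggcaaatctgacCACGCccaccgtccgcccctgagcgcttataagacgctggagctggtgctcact
Pfkp: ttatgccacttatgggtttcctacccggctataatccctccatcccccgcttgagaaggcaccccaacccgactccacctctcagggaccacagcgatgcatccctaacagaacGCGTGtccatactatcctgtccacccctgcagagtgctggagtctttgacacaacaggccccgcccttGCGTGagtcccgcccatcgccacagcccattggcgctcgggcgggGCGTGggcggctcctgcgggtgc
Hif1a: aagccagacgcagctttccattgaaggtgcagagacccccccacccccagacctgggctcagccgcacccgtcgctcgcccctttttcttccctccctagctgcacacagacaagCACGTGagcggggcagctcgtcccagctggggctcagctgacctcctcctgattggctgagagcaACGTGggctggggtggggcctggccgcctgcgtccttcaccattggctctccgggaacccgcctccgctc
Eno1: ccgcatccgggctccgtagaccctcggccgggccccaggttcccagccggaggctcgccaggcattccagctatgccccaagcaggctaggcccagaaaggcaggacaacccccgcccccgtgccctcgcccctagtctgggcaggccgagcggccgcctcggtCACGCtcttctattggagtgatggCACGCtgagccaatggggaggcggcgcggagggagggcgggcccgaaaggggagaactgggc
The cores nearest to the start begin 54 bases upstream in Adm, 23 in Pfkp, 70 in Hif1a and 62 in Eno1. Car9, the member with the largest difference, holds a single core that begins 18 bases before its start. Of the members with array values below, Ndrg1 and Epas1 were not matched to a promoter entry.

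The values per array are log2 signal with the array's own 75th percentile set to 0, and a probe's level can be compared between arrays but not with another probe's. Probe positions are given in mm9, as the array files record them, and whether a probe lies in an exon or an untranslated region was not assigned here. All 32 chosen probes were well above background on all 8 arrays and none was saturated.

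The HIF alpha subunits lay on different sides of saline. Hif1a (probe at chr12:75047269-75047329), the subunit that drives most glycolytic targets, read 1.56 and 1.5 on the saline arrays, 1.64 and 1.94 with chrysotile, 2.03 and 1.93 with crocidolite, and 1.5 and 1.60 with amosite. Both chrysotile and both crocidolite arrays stood above both saline arrays, and the amosite arrays lay either side of them. The difference from saline was 0.45 ± 0.14 with crocidolite (log2 ± SE, n = 2 arrays a group, limma unadjusted p = 0.0163, adjusted p = 0.615), 0.26 ± 0.14 with chrysotile and 0.02 with amosite. Epas1 (probe at chr17:87232615-87232674), the alpha subunit prominent in endothelium and also present in fat cells, read 3.84 and 3.99 with saline, 3.58 and 3.86 with chrysotile, 3.46 and 3.80 with crocidolite, and 3.67 and 3.94 with amosite. Here the crocidolite arrays were the ones below both saline arrays, and the others overlapped saline. Its log2 difference was -0.29 ± 0.18 with crocidolite and -0.19 ± 0.18 with chrysotile, and the other 2 Epas1 probes gave -0.15 and 0.00 with crocidolite, so the lower level was not seen on every probe of the gene.

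Neither oxygen sensor was clear of both saline arrays with any fibre. Egln1, the main prolyl hydroxylase, read -0.57 and -1.21 with saline, -0.94 and -0.80 with chrysotile, -0.87 and -0.70 with crocidolite, and -0.94 and -0.76 with amosite. All 6 fibre arrays lay between the saline arrays, which were the farthest apart of any pair for this gene. Its difference from saline was 0.02 ± 0.22 with chrysotile and 0.11 ± 0.22 with crocidolite, and its sign turned under another background correction. Egln3, a prolyl hydroxylase that is itself induced in hypoxia, read 4.77 and 4.38 with saline, 4.93 and 4.76 with chrysotile, 4.98 and 4.77 with crocidolite, and 4.71 and 4.43 with amosite. The lower chrysotile and crocidolite arrays were level with the higher saline array, and the log2 differences from saline were 0.27 ± 0.19 and 0.30 ± 0.19. Limma's unadjusted p-values were 0.193 and 0.155, and with the replicate block 0.0352 and 0.0245. All 4 of these arrays lay above both amosite arrays.

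Both transporters stood higher with chrysotile and crocidolite, with no overlap with saline. Slc2a1, which encodes the glucose transporter GLUT1 (probe at chr4:118809864-118809923), read 4.54 and 4.20 with saline, 4.74 and 4.77 with chrysotile, 4.96 and 4.71 with crocidolite, and 4.55 and 4.23 with amosite. The amosite arrays were close to the saline arrays of the same number, while all 4 arrays of the other fibres lay above them. The difference was 0.46 ± 0.18 with crocidolite (limma unadjusted p = 0.0404), 0.38 ± 0.18 with chrysotile (unadjusted p = 0.075) and 0.02 with amosite. Slc16a3, the lactate exporter MCT4, read 0.54 and 0.75 with saline, 0.77 and 1.26 with chrysotile, 0.95 and 1.35 with crocidolite, and 0.51 and 0.77 with amosite. Within each group the array of replicate 2 was the higher, and the log2 differences were 0.37 ± 0.23 and 0.51 ± 0.23 for chrysotile and crocidolite.

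Among the 15 glycolytic enzymes, 10 stood above both saline arrays with chrysotile (14.3% of all genes did), 10 with crocidolite (14.6%) and 2 with amosite (8.22%). Their median log2 difference was 0.21, 0.17 and 0.03. Pfkp, the platelet-type phosphofructokinase of the committed step, read 2.55 and 2.25 with saline, 2.99 and 2.99 with chrysotile, 3.16 and 2.90 with crocidolite, and 2.70 and 2.45 with amosite. The 4 chrysotile and crocidolite arrays were above every saline and amosite array. The differences from saline were 0.59 ± 0.17 with chrysotile (1.51-fold, limma unadjusted p = 0.0112, adjusted p = 0.899), 0.63 ± 0.17 with crocidolite (1.55-fold, unadjusted p = 0.00848, adjusted p = 0.569) and 0.18 ± 0.17 with amosite. A second, dimmer probe of Pfkp gave 0.27 and 0.30. The liver-type phosphofructokinase Pfkl also stood above both saline arrays with chrysotile and crocidolite, by 0.21 and 0.22. The muscle-type Pfkm lay below both saline arrays with each fibre, by -0.19, -0.18 and -0.06.

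Eno2, an enolase best known from neurons, read 2.58 and 1.93 with saline, 3.18 and 2.93 with chrysotile, 3.34 and 2.69 with crocidolite, and 2.76 and 2.12 with amosite. Replicate 1 was higher in every group, by 0.65 in 3 of them, and the lower crocidolite array was only slightly above the higher saline array. The log2 difference was 0.80 ± 0.34 with chrysotile and 0.76 ± 0.34 with crocidolite (limma unadjusted p = 0.0554 and 0.0656), and with the replicate block the p-values were 0.00186 and 0.00237. Eno1, the general enolase, read 7.74 and 7.83 with saline, 8.18 and 8.17 with chrysotile, 8.16 and 8.05 with crocidolite, and 8.01 and 7.73 with amosite. Both chrysotile arrays stood above all others, with a difference of 0.39 ± 0.13 from saline (unadjusted p = 0.0258), and crocidolite differed by 0.32 ± 0.13 (unadjusted p = 0.0528). The Eno1 probe is recorded at chr2:80678866-80678925 although RefSeq places the gene on chromosome 4, so what it measures is uncertain.

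Pkm, pyruvate kinase, read 6.84 and 6.66 with saline, 7.12 and 7.06 with chrysotile, 7.05 and 6.98 with crocidolite, and 6.84 and 6.73 with amosite. The chrysotile and crocidolite arrays did not overlap saline, and the differences were 0.34 ± 0.12 (unadjusted p = 0.0299) and 0.27 ± 0.12 (unadjusted p = 0.0668). Pgk1, phosphoglycerate kinase, read 8.08 and 7.78 with saline, 8.27 and 8.20 with chrysotile, 8.35 and 8.08 with crocidolite, and 8.09 and 7.83 with amosite. The chrysotile arrays stood above both saline arrays and the crocidolite arrays overlapped them, and the probe is recorded on chromosome 3 (57906830-57906894) whereas the gene lies on X. Ldha, which turns pyruvate into lactate and is a classical HIF target, read 9.02 and 9.09 with saline, 9.23 and 9.08 with chrysotile, 9.13 and 9.12 with crocidolite, and 9.04 and 9.003 with amosite. It was at 0.10 ± 0.11 with chrysotile and 0.07 ± 0.11 with crocidolite, and its other 2 probes gave 0.17 and 0.19 with chrysotile and 0.15 and 0.17 with crocidolite.

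Among the remaining enzymes, Tpi1, triosephosphate isomerase, was at 0.21, 0.18 and 0.04 with chrysotile, crocidolite and amosite, and Pgam1, phosphoglycerate mutase, at 0.17, 0.17 and 0.03. A second, dimmer Tpi1 probe gave 0.03, 0.05 and -0.15, so the higher level was not seen on both probes of that gene. The aldolase Aldoc was at 0.33, 0.16 and -0.10, while the main muscle-type aldolase Aldoa was at 0.00, 0.01 and -0.02. Gpi1, which isomerises glucose 6-phosphate, was at 0.10, 0.09 and 0.03, and its other probes gave 0.05, 0.08 and -0.03, and 0.13, 0.09 and 0.05. The hexokinase of the first step stood at 0.05, 0.16 and -0.11 for Hk2, the insulin-regulated form of fat and muscle. For Hk1 the brightest probe gave 0.15, 0.06 and -0.10, but that probe is recorded at chr5:22118404-22118463 and the gene lies on chromosome 10, where 2 dimmer Hk1 probes gave 0.36, 0.32 and -0.16, and 0.18, 0.11 and -0.24.

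The 3 regulators showed no common direction. Pdk1, the kinase that closes the entry of pyruvate into the mitochondrion, read 3.32 and 3.28 with saline, 3.49 and 3.53 with chrysotile, 3.55 and 3.53 with crocidolite, and 3.36 and 3.32 with amosite. Its arrays were tightly grouped and did not overlap saline with chrysotile and crocidolite, with differences of 0.21 ± 0.10 and 0.24 ± 0.10. Pfkfb3, which makes the activator of phosphofructokinase, read 2.78 and 3.12 with saline, 2.59 and 2.81 with chrysotile, 2.69 and 2.96 with crocidolite, and 2.79 and 3.14 with amosite. It is a HIF target in many cells, yet here the saline and amosite arrays were alike and the other fibres lay lower number by number, by -0.25 ± 0.20 and -0.13 ± 0.20, with overlap. Pfkfb4, its relative, was at 0.01, 0.10 and -0.14.

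The 8 further hypoxia targets included Car9, the member with the largest difference from saline with each fibre, and had medians of 0.37, 0.41 and 0.09 for chrysotile, crocidolite and amosite. Car9, a cell-surface carbonic anhydrase that handles acid and a widely used hypoxia marker (probe at chr4:43526518-43526577), read 1.46 and 0.14 with saline, 2.13 and 2.08 with chrysotile, 2.76 and 1.75 with crocidolite, and 1.73 and 0.52 with amosite. All 4 chrysotile and crocidolite arrays were above the saline and amosite arrays, but replicate 1 and 2 of saline, crocidolite and amosite were themselves more than 1 log2 unit apart. The difference was 1.31 ± 0.59 with chrysotile (2.47-fold, limma unadjusted p = 0.0675, adjusted p = 0.899), 1.45 ± 0.59 with crocidolite (2.74-fold, unadjusted p = 0.0475, adjusted p = 0.685) and 0.33 ± 0.59 with amosite. With the replicate block the p-values were 0.00981 and 0.00629. The size depends on the saline arrays: without saline replicate 2 the difference was 0.65 with chrysotile and 0.79 with crocidolite, and without saline replicate 1 it was 1.965 and 2.11.

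Ndrg1, a stress-responsive gene strongly induced in hypoxia (probe at chr15:66761057-66761116), read -0.09 and -0.43 with saline, 0.25 and 0.69 with chrysotile, 0.74 and 0.65 with crocidolite, and -0.28 and -0.31 with amosite. The amosite arrays lay between the saline arrays and the other fibres stood apart from both groups. Its log2 difference was 0.73 ± 0.19 with chrysotile (1.66-fold, limma unadjusted p = 0.00737, adjusted p = 0.889), 0.95 ± 0.19 with crocidolite (1.94-fold, unadjusted p = 0.00196, adjusted p = 0.493) and -0.04 ± 0.19 with amosite. For Ndrg1 the replicate block gave larger unadjusted p-values, 0.0124 with chrysotile and 0.00406 with crocidolite. Adm, the vasodilator peptide adrenomedullin (probe at chr7:117773088-117773147), read 1.91 and 1.71 with saline, 2.45 and 2.62 with chrysotile, 2.86 and 2.49 with crocidolite, and 2.17 and 1.93 with amosite. The groups ranked saline, amosite, then the other fibres without overlap between neighbours, although the 2 fibres at the top overlapped each other. Adm differed from saline by 0.72 ± 0.18 with chrysotile (1.65-fold, unadjusted p = 0.00593), 0.87 ± 0.18 with crocidolite (1.82-fold, unadjusted p = 0.00245) and 0.24 ± 0.18 with amosite (unadjusted p = 0.222), with adjusted p of 0.889, 0.493 and 1.00.

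Ankrd37, a small ankyrin-repeat protein and HIF target, read 2.37 and 2.06 with saline, 2.77 and 2.45 with chrysotile, 2.88 and 2.44 with crocidolite, and 2.60 and 2.05 with amosite. The lower chrysotile and crocidolite arrays were just above the higher saline array, and the differences were 0.39 ± 0.26 and 0.44 ± 0.26. P4ha2, a subunit of the collagen prolyl hydroxylase, read 4.08 and 3.59 with saline, 4.26 and 4.10 with chrysotile, 4.40 and 4.03 with crocidolite, and 4.06 and 3.62 with amosite. Chrysotile cleared both saline arrays and crocidolite did not, with differences of 0.35 ± 0.24 and 0.38 ± 0.24. Its sister subunit P4ha1 read 2.09 and 2.05 with saline, 2.15 and 2.17 with chrysotile, 2.35 and 2.28 with crocidolite, and 2.18 and 1.98 with amosite. The crocidolite arrays were the highest of this gene, 0.25 ± 0.12 above saline.

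Bnip3, a mitophagy gene and HIF target, was at 0.22, 0.23 and 0.06 with chrysotile, crocidolite and amosite. Ddit4, an inhibitor of mTORC1 signalling that responds to many stresses, differed between replicates more than between groups. It read 5.88 and 4.48 with saline, 5.65 and 5.01 with chrysotile, 6.22 and 4.77 with crocidolite, and 6.15 and 4.66 with amosite. Every replicate 1 array stood above every replicate 2 array, and the differences from saline were 0.15, 0.32 and 0.23 with an SE of 0.74.

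**Figure D1:**
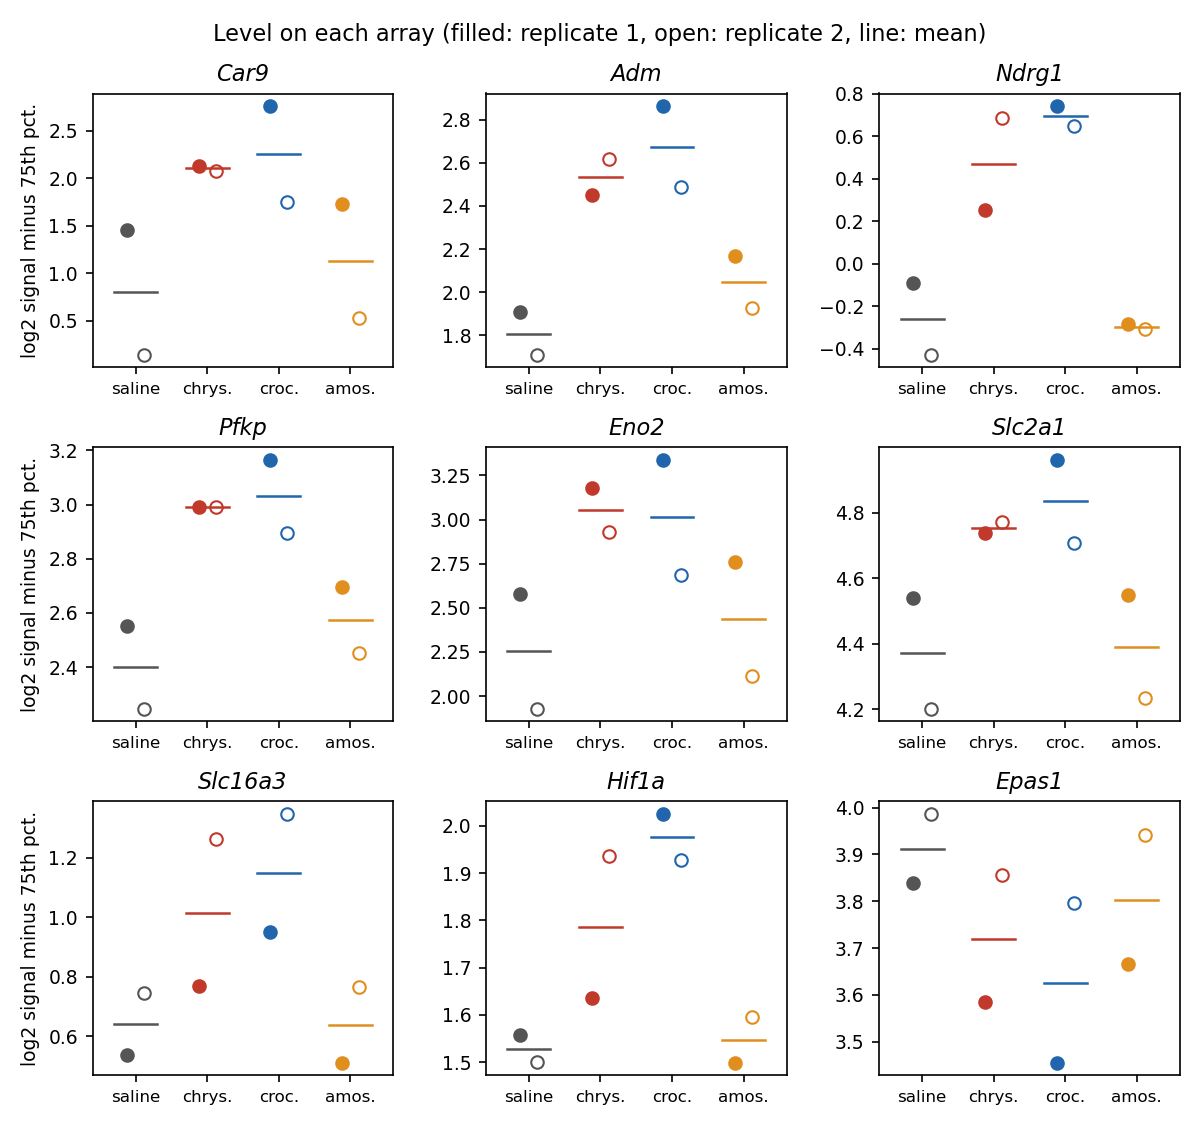
Each panel is 1 of 9 members and shows its log2 signal minus the array's 75th percentile on each of the 8 arrays by group, with replicate 1 filled, replicate 2 open and the group mean as a line, on an axis of its own that does not start at 0. In all panels but that of Epas1 the chrysotile and crocidolite arrays are above both saline arrays, and for Epas1 the crocidolite arrays are below them.

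Counted over the members, 20 of 32 stood above both saline arrays with chrysotile against 14.3% of all genes, 20 with crocidolite against 14.6%, and 3 with amosite (Adm, Gpi1 and Pgam1) against 8.22%. Below both saline arrays stood 1 member with chrysotile (Pfkm) against 15.3% of all genes, 2 with crocidolite (Pfkm and Epas1) against 19.9%, and 2 with amosite (Pfkm and Aldoc) against 12.9%. An unadjusted p under 0.05 with a higher level was reached by 5 members with chrysotile (2.83% of all genes), 6 with crocidolite (2.86%) and 0 with amosite (1.1%), and by 0 members with a lower level in each (2.64%, 4.42% and 1.57%). Same-numbered arrays deviated together, and with the replicate block 13 members reached an unadjusted p under 0.05 upward with chrysotile (5.51% of all genes), 16 with crocidolite (5.61%) and 0 with amosite (1.74%). Downward these were Pfkfb3 with chrysotile (4.96%) and Epas1 with crocidolite (7.74%). The adjusted p stayed above 0.05 for every member in both fits.

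**Figure D2:**
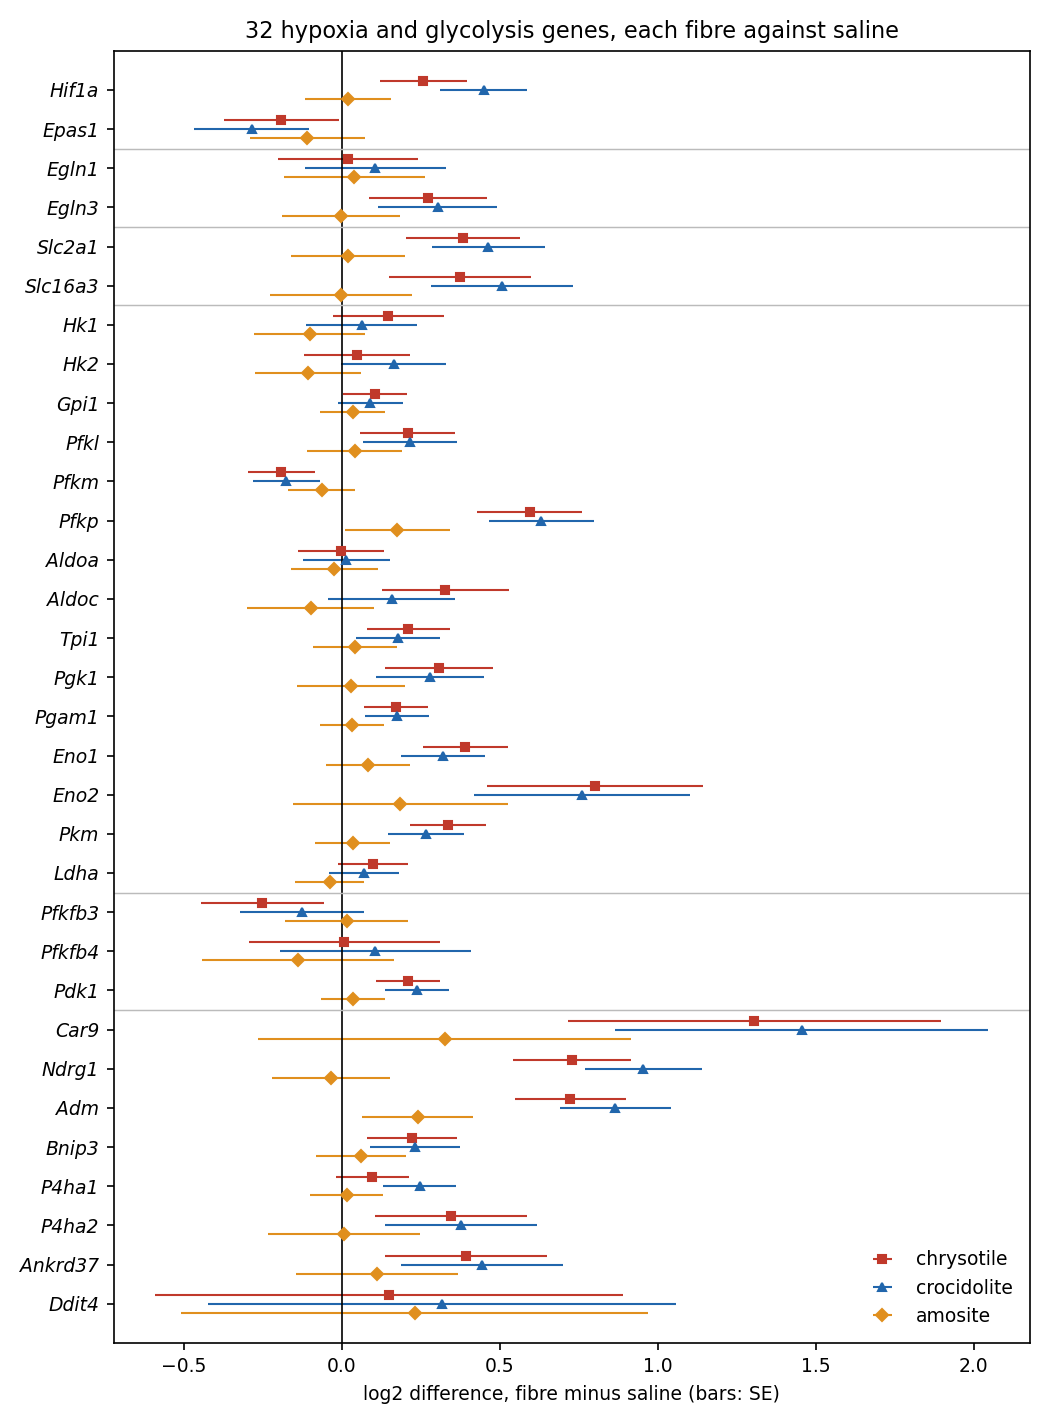
Points are the log2 difference of each fibre from saline for each member and bars its SE from limma (n = 2 arrays a group), with 0 marked and grey lines between the roles. The points of amosite stay between -0.14 and 0.33, and those of the other fibres reach 1.31 and 1.45 for Car9.

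Set within the distribution of all genes, 22 members with chrysotile, 23 with crocidolite and 7 with amosite lay above the 75th percentile of the log2 differences, which was at 0.14, 0.13 and 0.08. Above the 90th percentile lay 12, 13 and 2, and below the 25th lay 3, 1 and 2.

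**Figure D3:**
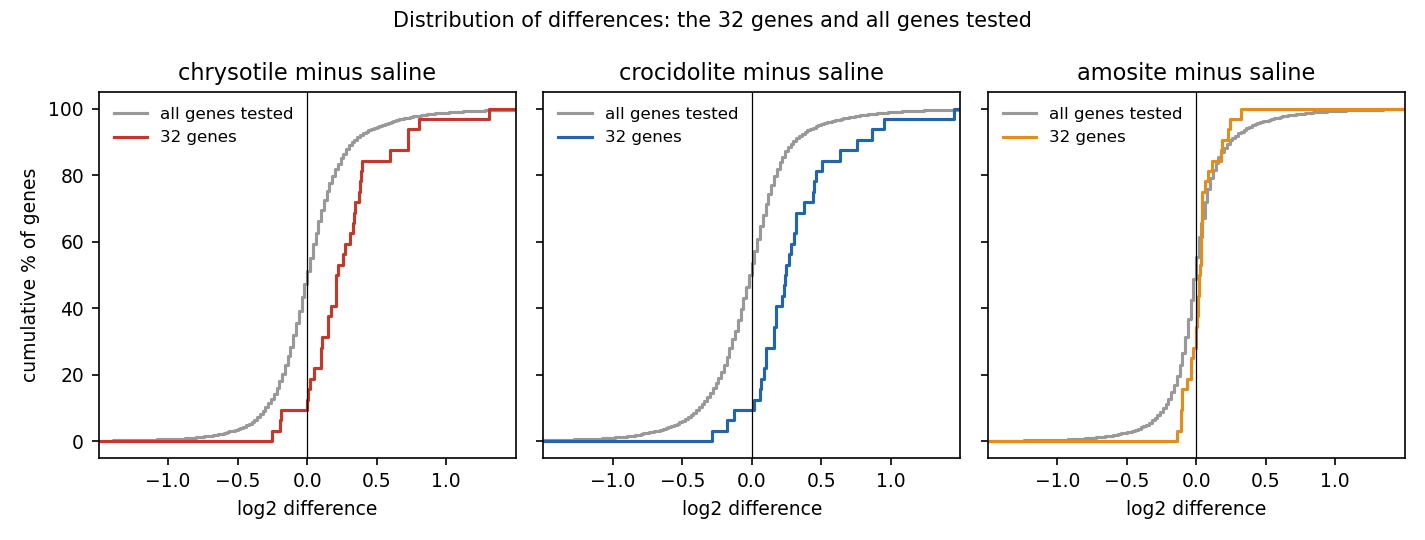
Panels show, for each fibre minus saline, the cumulative percent of genes at or below each log2 difference, in grey for all 23050 genes and in colour for the 32 members. The coloured line lies to the right of the grey one over most of its length with chrysotile and crocidolite and close to it with amosite. The members' median is at 0.22, 0.24 and 0.02, beside -0.01, -0.02 and -0.02 for all genes.

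Taken array by array, the members' median deviation from each gene's mean was -0.09 and -0.14 for saline, 0.11 and 0.10 for chrysotile, 0.16 and 0.07 for crocidolite, and -0.05 and -0.13 for amosite. The 4 chrysotile and crocidolite arrays were all above 0, the other 4 all below, and the pooled SD of this median between replicates was 0.0474. Matched by replicate number, 22 of 32 members were above saline in both pairs with chrysotile (23.9% of all genes), 26 with crocidolite (25%) and 12 with amosite (17.6%). Below saline in both pairs were 3 with chrysotile (26.3%), 3 with crocidolite (32.1%) and 4 with amosite (26.5%).

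Part of the spread followed the replicate number rather than the fibre. The same sign of replicate 1 minus replicate 2 was found in all 4 groups for 14 of 32 members. Higher on replicate 1 throughout were 9 members, Car9, Pfkm, Pgk1, Eno2, Pkm, Egln3, P4ha2, Ankrd37 and Ddit4, and lower throughout were 5, Pfkl, Pfkfb3, Pfkfb4, Slc16a3 and Epas1. Ddit4 was higher by 1.40 in saline, 0.64 in chrysotile, 1.45 in crocidolite and 1.49 in amosite, and Car9 by 1.32, 0.05, 1.02 and 1.2. For both genes the gap was smallest with chrysotile. The number was also the column of the slide, and each group filled a row of it, so row and treatment cannot be told apart.

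**Figure D4:**
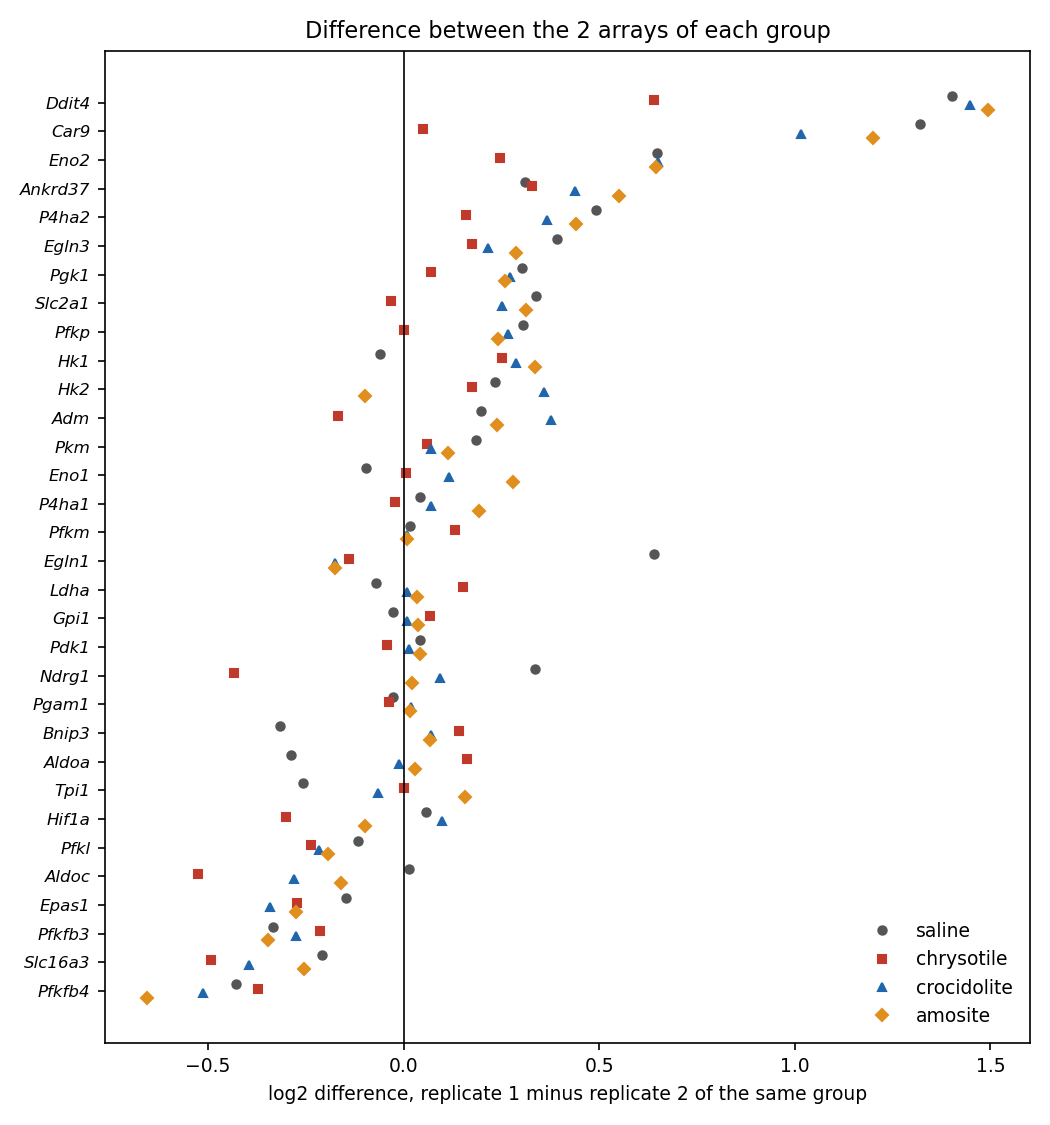
For each member the log2 signal of replicate 1 minus replicate 2 is shown as 1 point for each of the 4 groups. Ddit4 lies between 0.64 and 1.49 in all groups and Car9 between 0.05 and 1.32, and the points of Pfkfb4 are all below 0.

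The fibres were also compared with each other. Chrysotile and crocidolite were close: the members' median difference was -0.03 (chrysotile minus crocidolite) beside 0.01 for all genes, 10 members were above 0 (53.3% of all genes), and 3 stood above and 2 below without overlap (12.8% and 10.5% of all genes). An unadjusted p under 0.05 was reached by 0 members upward (2.11% of all genes) and 0 downward (0.638%), and with the replicate block also by 0 (3.48% and 1.04%). No member differed at an adjusted p of 0.05 (0% of all genes). The difference was -0.15 for Car9 with a 95% interval of -1.58 to 1.28, -0.14 for Adm (-0.57 to 0.29), -0.23 for Ndrg1 (-0.68 to 0.23) and -0.04 for Pfkp (-0.44 to 0.37). On its lower side the interval of Car9 reaches beyond the size of its difference of chrysotile from saline, while those of Adm, Ndrg1 and Pfkp do not reach the size of their differences from saline. None of these intervals shows that the 2 fibres acted alike.

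Both stood above amosite, the other amphibole, for most members. Crocidolite minus amosite had a median of 0.23 (all genes -0.01), with 29 members above 0 (48.4% of all genes), 20 higher without overlap (17.6%) and 1 lower (20.3%). At an unadjusted p under 0.05 there were 5 members higher (2.47%) and 0 lower (2.66%), and with the replicate block 12 higher (5.21%) and 0 lower (4.79%). Ndrg1 differed by 0.99 with a 95% interval of 0.54 to 1.44 (limma unadjusted p = 0.00162, adjusted p = 0.872), Adm by 0.63 (0.20 to 1.05), Pfkp by 0.46 and Hif1a by 0.43 (0.10 to 0.76). Chrysotile minus amosite had a median of 0.21 (all genes 0.01), with 27 members above 0 (52.4%), 21 higher without overlap (17.7%) and 1 lower (15.6%). There 4 members were higher at an unadjusted p under 0.05 (2.62%) and 0 lower (1.7%), and with the replicate block 14 were higher (5.44%) and 1 lower (3.14%). Ndrg1 again had the smallest unadjusted p among the members, with a difference of 0.76 (limma unadjusted p = 0.00589, adjusted p = 1.00). Neither comparison had a member past the adjusted threshold (0% of all genes in each), and both rest on the same 2 amosite arrays.

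Other genes of the pathway, taken from lists of known members, did not all share this pattern, and none passed the adjusted threshold with or without the block. Of 5 measured genes of the HIF machinery, 1 was above 0 with chrysotile, 2 with crocidolite and 2 with amosite, and Hif3a, a HIF subunit that can act as an inhibitor, was lower by -0.36 ± 0.16 with chrysotile and -0.44 ± 0.16 with crocidolite, with no overlap. Of 28 measured further HIF targets, 21, 23 and 9 were above 0 (48.8%, 46.3% and 44.7% of all genes), with medians of 0.19, 0.21 and -0.04. Above both saline arrays stood 9, 14 and 0 of them (14.3%, 14.6% and 8.22% of all genes), and below stood 2, 2 and 3 (15.3%, 19.9% and 12.9%). Among these further targets, Car12 stood above both saline arrays with chrysotile and crocidolite, by 0.77 ± 0.48 and 1.14 ± 0.48. Against the direction of most of the list, Tfrc, the transferrin receptor and also a HIF target, stood lower than saline with these fibres, by -0.68 ± 0.28 and -0.89 ± 0.28.

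The glycolytic and lactate genes outside the members were mixed. Of 18 measured, 6 were above 0 with chrysotile, 5 with crocidolite and 8 with amosite, with medians of -0.12, -0.22 and -0.03, beside all-gene medians of -0.01, -0.02 and -0.02. Below both saline arrays lay 5, 8 and 3 of them (15.3%, 19.9% and 12.9% of all genes), and above lay 3, 2 and 2 (14.3%, 14.6% and 8.22%). Gapdh, a glycolytic enzyme often used as a reference gene, was lower by -0.19 ± 0.12, -0.30 ± 0.12 and -0.30 ± 0.12. Pdk2, another kinase of pyruvate dehydrogenase, read 2.40 and 2.64 with saline, 2.14 and 2.04 with chrysotile, 1.92 and 2.17 with crocidolite, and 2.25 and 2.60 with amosite. It was below both saline arrays with chrysotile and crocidolite, by -0.43 ± 0.17 and -0.47 ± 0.17. Pdk3, a further kinase of the same enzyme, read 1.83 and 1.79 with saline, 2.14 and 2.11 with chrysotile, 2.16 and 2.17 with crocidolite, and 1.95 and 1.74 with amosite. Like Pdk1 it stood above both saline arrays with chrysotile and crocidolite, by 0.31 ± 0.12 and 0.36 ± 0.12.

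All 12 adipocyte markers were measured, 11 of them were below saline with chrysotile, 11 with crocidolite and 10 with amosite, with median log2 differences of -0.14, -0.13 and -0.07, and none passed the adjusted threshold. Their summed linear signal (in units of the array's 75th percentile) ranged from 3010 to 3899 with saline, 3135 to 3226 with chrysotile, 2974 to 3221 with crocidolite and 3070 to 3231 with amosite. Cfd alone made up 27.2% to 32.2% of this adipocyte sum. The preadipocyte and fibroblast sum (8 of 8 measured) also overlapped between groups, at 624.3 to 708.5, 612.1 to 758.7, 591.8 to 732.6 and 579.9 to 686.9. Col6a1 alone made up 36.2% to 54.1% of it. Without Col6a1 the groups still overlapped, at 316.4 to 430.9, 289.3 to 461.2, 271.6 to 423.6 and 292.4 to 438. Dlk1 was then the brightest of the list on every array, and it read 7.98 and 7.56 with saline and 8.11 and 6.98 with chrysotile. The overlap of this sum therefore does not speak for the whole list. Of the 8 genes of that list 6, 6 and 1 were above 0 with chrysotile, crocidolite and amosite, with medians of 0.07, 0.11 and -0.06. Its largest difference was that of Ly6a, a surface antigen of progenitor cells. Ly6a stood above both saline arrays by 0.82 ± 0.27 with chrysotile and 0.78 ± 0.27 with crocidolite, and was at -0.01 with amosite. Dlk1 was at -0.23 and -0.38 with chrysotile and crocidolite, and Cd34 at -0.09 and -0.03. Of 12 macrophage markers 7 were measured, and Emr1, Lyz2, Fcgr1, Tyrobp and Cd163 did not pass the filter on dim probes or were not matched by symbol. The sum of the 7 measured markers ranged from 66.72 to 74.18 with saline, 65.25 to 75.62 with chrysotile, 61.9 to 69.52 with crocidolite and 62.4 to 66.74 with amosite, but Itgam alone made up 86.1% to 89.8% of it. Without Itgam, which was set aside after its values were seen, the sum ranged from 9.22 to 9.29, 7.54 to 9.90, 8.54 to 9.66 and 6.37 to 8.44. Csf1r was then the brightest marker on every array, so this sum too leans on a single gene. Cd14 stood higher by 0.70 and 0.96 and Cd68 by 0.60 and 0.41 with chrysotile and crocidolite, without overlap with saline, while Csf1r stood lower by -0.45 and -0.37 (and by -0.46 with amosite). The part of these markers in the members' differences was not tested. In RNA of whole cultures, fewer cells of a type and less RNA per cell cannot be told apart.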

How the data were processed

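The deposited files hold 1 linear intensity per spot, the scanner software's processed signal, made by the authors with Agilent Feature Extraction 10.7 per the submitters' processing notes and not scaled across arrays. The value table that the authors also deposited is identical to it (largest difference 0). Control spots and outlier spots (99 to 183 an array) were left out, each array's log2 75th percentile (340.1 to 453.4 before the log) was subtracted, and 9 probes without a value on some array were left out. Of 55681 probes, 33044 were well above background on both arrays of at least 1 group. Between 56.2% and 62.8% of probes were above background on an array. The brightest probe stood for each gene, which gave 23050 genes (7901 without a symbol). Symbols came from the files and, for 26863 probes, from RefSeq transcripts, and Pkm2 is now Pkm.

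One limma fit (lmFit and eBayes, 4 residual and 2.22 prior degrees of freedom) of all 8 arrays gave every comparison, two-sided, with Benjamini-Hochberg adjustment over all genes at 0.05, in R 4.3.3 with limma 3.58.1 and the data.table package (1.17.8). It was also run on simulated data whose noise was independent between arrays. The arrays here deviated together by replicate number, so that run does not vouch for the p-values. The precision is limited by 2 arrays a group. Arrays with the same replicate number in the labels deviated from their group means in the same way (correlations from 0.253 to 0.454 over the 6 pairs of groups). The fit blocked on that replicate number, with 3 residual degrees of freedom, is therefore given where it moves a count. All arrays were on 1 slide with 1 scan date, so neither could be a block.

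Values on each array are given for members with an unadjusted p under 0.05 in either fit against saline, or a log2 difference of at least 0.5 with no overlap, and for Hif1a, Epas1, Slc2a1, Ldha and Egln1. Ddit4 was added after its values were seen. Of the pathway lists, up to 3 genes a role without overlap are named. The members, lists and rules were chosen with earlier results of these data known. Alternatives were normexp background correction (offset 50), quantile normalization, no filter or a filter on all 8 arrays, the mean over probes, another prior, only the groups compared, the authors' value table, and leaving out each array. Of the lists, Arnt2, Slc2a3, Mxi1 and Stc2 did not pass the filter or were not matched, and 1 gene is not reported here.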

Additional observations from a re-analysis of the deposited data

How the results depend on the processing

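With 2 arrays a group the limits are wide: no member passed the adjusted threshold under any alternative. Directions were followed for 48 results of members that met the rule for array values, most of them picked for their differences in these data. Of their 859 recomputed values 841 kept their direction. Settings such as the replicate block, another prior and the identical value table cannot change a difference, so this count does not measure robustness. The replicate block changed no call at the adjusted threshold, with 0 genes called in each of the 6 comparisons. Quantile normalization called 3 genes with chrysotile, 2 with crocidolite and 2 with amosite, none of them a member, and gave members' medians of 0.12 for chrysotile minus amosite and 0.17 for crocidolite minus amosite. It put 5 members above both saline arrays with amosite, and normexp 0, and the share of all genes under these settings was not computed. With normexp, Egln1 turned to -0.0435 with chrysotile and -0.0199 with crocidolite, and Ndrg1 to 0.0041 with amosite. The cause was not tested.

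With each array left out in turn, the genes called ranged from 0 to 67 for chrysotile, 0 to 51 for crocidolite and 0 to 58 for amosite against saline, each highest without saline replicate 2 and none of them a member. They ranged from 0 to 1 for chrysotile against crocidolite and against amosite, and were 0 for crocidolite against amosite. The members' median ranged from 0.20 to 0.28, 0.20 to 0.29 and -0.0378 to 0.0614 for the 3 fibres against saline. It ranged from -0.0412 to 0.0261 for chrysotile minus crocidolite, 0.14 to 0.25 for chrysotile minus amosite and 0.15 to 0.31 for crocidolite minus amosite. Members above the saline arrays numbered 20 to 25, 20 to 26 and 3 to 15, but with fewer arrays more of all genes stand above saline too. With an array of the 2 compared groups left out, 26.3% to 37.1% of all genes did so with chrysotile, 26% to 36.3% with crocidolite and 19.9% to 35.2% with amosite. The 15 for amosite came without saline replicate 1, where 26.7% of all genes did. Against amosite the members numbered 21 to 25 and 20 to 26, and the share of all genes was not computed. Egln1 ranged from -0.30 to 0.34 with chrysotile and -0.21 to 0.43 with crocidolite, and Pfkfb3 from -0.29 to 0.0406 with crocidolite. With amosite, Car9 ranged from -0.33 to 0.98, Ndrg1 from -0.20 to 0.13, Hif1a from -0.0295 to 0.0681, Pkm from -0.058 to 0.13, Slc2a1 from -0.15 to 0.19 and Eno1 from -0.0571 to 0.22. Leaving out the Hk1, Eno1 and Pgk1 probes with a differing chromosome, chosen after seeing the data, gave medians of 0.22, 0.24 and 0.02.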
